A study of Mus musculus with 2 samples.

Results

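The Ikaros family of zinc finger transcription factors was examined in total RNA-seq of cells labelled mouse megakaryocyte progenitor. The family has 5 genes, Ikzf1 (Ikaros), Ikzf2 (Helios), Ikzf3 (Aiolos), Ikzf4 (Eos) and Ikzf5 (Pegasus), chosen by name and found by gene identifier. All 5 were present among the 43346 Ensembl genes of each table. The series holds 2 libraries in 1 group, replicates 1 and 2. Both libraries came from primary bone marrow progenitors of male C57BL/6J mice aged 5 to 6 weeks, with no genotype change or treatment in the labels and 1 ng of RNA as input. The labels call the cells CFU-Meg, the colony-forming progenitor of the platelet-releasing megakaryocyte, and give 1 donor identifier for both biosamples. The spread between the libraries may therefore be technical. With 1 group there is no contrast between conditions and no test, so values are given per library and as mean ± SD (n = 2).

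Ikaros family proteins bind DNA through a group of C2H2 zinc fingers near the N-terminus and pair with themselves and each other through C-terminal fingers. They act in lymphocyte and other blood cell development, in large part by bringing chromatin complexes such as NuRD and SWI/SNF to their target genes. Alternative splicing removes N-terminal fingers from some Ikaros proteins. Forms that keep the pairing fingers but have too few DNA-binding fingers can block the full proteins. In the megakaryocyte lineage Ikaros is known as a negative regulator with a functional link to the Notch pathway.

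The defining markers went against the label of the libraries. Of 11 megakaryocyte markers, 2 reached 1 TPM (a level per length, scaled to a fixed total per library) in both libraries, and the summed level of the list was 11.2 TPM in replicate 1 and 6.80 TPM in replicate 2. Tubb1 and Gp6, a platelet tubulin and a platelet collagen receptor, were at 0 counts in each library, a limit of 0.048 and 0.051 TPM for Gp6 at 3 counts. All 9 granulocyte markers passed 1 TPM in both libraries, with a summed level of 15760 and 16406 TPM, led by the granule enzymes Mpo and Elane. The label is kept below only as the submitters' name. Lymphoid markers were low apart from Cd79b. Of the B cell markers, 1 of 8 reached 1 TPM in both libraries and Ms4a1 and Blk were among those with no reads, and of the T and NK cell markers, 0 of 10 did, with Cd3e, Cd3g and Cd8a at no reads. The tables summed to 82746658 expected counts for replicate 1 and 75652762 for replicate 2. In bulk RNA, fewer cells that express a gene and less RNA per cell cannot be told apart.

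The second N-terminal finger is shown for each member because it lies at the centre of the DNA-binding block and shows how the genes relate. The coding bases are written 5′ to 3′ from the GENCODE M21 transcripts on GRCm38, with the codons of the zinc-binding cysteines and histidines in capitals.
Ikzf1 finger 2: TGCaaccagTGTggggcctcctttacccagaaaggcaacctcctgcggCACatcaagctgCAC
Ikzf2 finger 2: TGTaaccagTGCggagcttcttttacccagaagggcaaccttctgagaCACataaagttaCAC
Ikzf3 finger 2: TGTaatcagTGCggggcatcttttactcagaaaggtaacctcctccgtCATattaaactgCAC
Ikzf4 finger 2: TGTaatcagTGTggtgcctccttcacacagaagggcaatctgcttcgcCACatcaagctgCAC
Ikzf5 finger 2: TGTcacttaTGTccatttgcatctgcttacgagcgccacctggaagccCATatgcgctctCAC

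These stretches lie at chr11:11754024-11754086 on the plus strand (Ikzf1, exon 5 of Ikzf1-204), and on the minus strand at chr1:69570581-69570643 (Ikzf2, exon 5), chr11:98488940-98489002 (Ikzf3, exon 5), chr10:128640229-128640291 (Ikzf4, exon 5) and chr7:131392501-131392563 (Ikzf5, exon 4). Translated, the 63 bases of Ikzf1, Ikzf2, Ikzf3 and Ikzf4 give the same 21 residues. The DNA behind those residues differs: Ikzf1 and Ikzf4 differ at 10 bases, Ikzf1 differs from Ikzf2 and from Ikzf3 at 12 each, and the other pairs among these 4 genes differ at 15. Finger 2 of Ikzf5 shares 5 of the 21 residues with finger 2 of the others, and its best match in Ikzf1 is finger 3, with 9 shared residues. Across the whole predicted proteins, Ikzf1 was 52.3% identical to Ikzf2, 53.2% to Ikzf3, 47.2% to Ikzf4 and 22.9% to Ikzf5. The predicted proteins have 515, 526, 507, 586 and 419 residues for Ikzf1 to Ikzf5. A C2H2 pattern found 4 N-terminal and 2 C-terminal fingers in Ikzf1, Ikzf2 and Ikzf4, and 3 N-terminal and 2 C-terminal fingers in Ikzf5. It found 5 fingers in Ikzf3, and 6 when a cysteine was allowed as the last zinc-binding residue.

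The family was dominated by Ikzf1. Ikzf1 (ENSMUSG00000018654.13, chr11:11685003-11772926, plus strand), which encodes Ikaros, had 65.59 TPM in replicate 1 and 64.16 TPM in replicate 2, from expected counts of 18290 and 16013. Both libraries lie within a narrow range, at 64.9 ± 1.0 TPM. This placed Ikzf1 above 95.6% of protein-coding genes by mean TPM, and 3 of 25 blood transcription factors (Myb, Lmo2 and Spi1) stood higher. Ikzf1 held 78.8% and 81.4% of the summed TPM of the family. The factors with the closest level were Cbfb, Nfe2 and Etv6. Cbfb, the binding partner of Runx proteins, had 62.74 and 60.63 TPM. Nfe2, a megakaryocyte and erythroid factor, had 57.40 and 47.42 TPM, and the repressor Etv6 had 50.84 and 51.33 TPM. These factors are the nearest of the 25 by mean log2(TPM + 1) over 2 libraries, a likeness of level and nothing more.

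**Figure D1:**
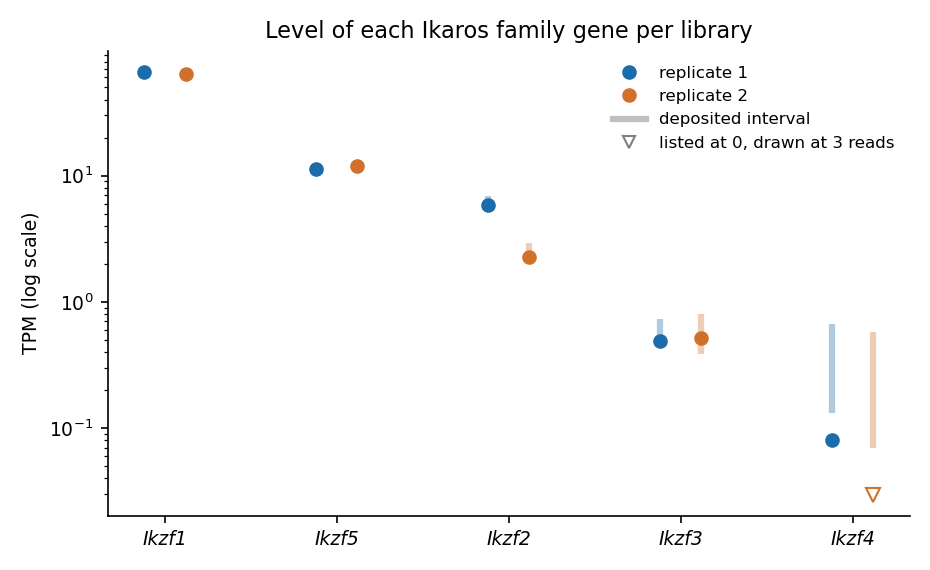
TPM of the 5 Ikaros family genes on a log axis, with 1 point per library, the authors' deposited interval as a pale bar, and an open triangle at the level of 3 reads where the gene is listed at 0. Ikzf1 lies at 64.16 to 65.59 TPM and Ikzf5 at 11.22 to 11.91 TPM, while the Ikzf2 libraries lie apart at 5.88 and 2.27 TPM.

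Ikzf5 ranked next. Ikzf5 (ENSMUSG00000040167.11, chr7:131388652-131410521, minus strand) encodes Pegasus, the most divergent member. It had 11.22 TPM in replicate 1 and 11.91 TPM in replicate 2, from expected counts of 2944 and 2904. The libraries were close, at 11.6 ± 0.5 TPM, above 76.9% of protein-coding genes. The nearest factors by level were Stat5a, a cytokine signal transducer, at 12.74 and 10.52 TPM, the granulocyte factor Cebpe at 9.95 and 13.97 TPM, and the E protein gene Tcf3 at 12.33 and 14.67 TPM. Pstk, which encodes a kinase of selenocysteine synthesis, runs over the opposite strand, and its M21 exons cover 81.3% of the exonic bases of Ikzf5. Pstk was listed at expected counts of 636 and 531, and strand use was not given in the sources used here, so reads of the pair could not be told apart.

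Of the 4 members with reads in both libraries, Ikzf2 differed most in TPM between them. Ikzf2 (ENSMUSG00000025997.9, chr1:69531214-69687245, minus strand) encodes Helios, known from T cells and early progenitors. It had 5.88 TPM in replicate 1 and 2.27 TPM in replicate 2, from expected counts of 2174 and 996. Replicate 1 was the higher library, and the mean was 4.08 ± 2.55 TPM. The nearest factors by level were Ets1 at 2.20 and 2.82 TPM, and Gata2 and the GATA cofactor gene Zfpm1, which were also higher in replicate 1 at 7.35 against 4.61 TPM and 8.90 against 5.04 TPM.

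Ikzf3 was low and Ikzf4 was near the lower end of what the libraries could measure. Ikzf3 (ENSMUSG00000018168.8, chr11:98464902-98546031, minus strand), which encodes the lymphocyte factor Aiolos, had 0.49 TPM in replicate 1 and 0.52 TPM in replicate 2, from expected counts of 108 and 62, above 49.3% of protein-coding genes. Ikzf4 (ENSMUSG00000002578.11, chr10:128630843-128645991, minus strand), which encodes Eos, known as a partner of Foxp3 in regulatory T cells, had 0.08 TPM from an expected count of 11 in replicate 1 and was listed at 0 in replicate 2. A count of 0 allows up to 3 reads, which would be 0.030 TPM in replicate 2. Scaled for library size, the 95% counting interval of the log2 ratio of replicate 2 to replicate 1 reached up to -1.18. The deposited intervals of Ikzf4 were 0.132 to 0.671 TPM and 0.070 to 0.581 TPM. They belong to the posterior mean of the authors' model, 0.38 and 0.30 TPM, and lie above the maximum likelihood values. The factor with the closest level to both genes was Mecom, a stem cell factor, at 1.76 and 0.22 TPM, followed by Ets1 and Gata2, and by mean TPM all 25 factors stood above both genes.

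The order of mean levels was Ikzf1, Ikzf5, Ikzf2, Ikzf3 and Ikzf4. No neighbours in this order overlapped in their TPM over the libraries. The step from Ikzf1 to Ikzf5 was 5.85-fold in replicate 1 and 5.39-fold in replicate 2, similar in both. The step from Ikzf5 to Ikzf2 was 1.91-fold in replicate 1 and 5.25-fold in replicate 2, so its size depended on the library. By the deposited intervals alone, Ikzf3 and Ikzf4 overlapped and could not be ordered. Their expected counts were 108 against 11 in replicate 1 and 62 against 0 in replicate 2. Of the family's TPM, Ikzf5 held 14.3 ± 1.2%, Ikzf2 4.97 ± 2.96%, Ikzf3 0.62 ± 0.05% and Ikzf4 0.05 ± 0.07%.

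Ikzf1 reads were assigned mainly to the full-length form. Ikzf1-204 encodes 515 residues with all 4 N-terminal fingers, and held 83.35% of the gene's TPM in replicate 1 and 81.62% in replicate 2. Ikzf1-201 held 12.58% and 13.63%, so the order of these transcripts was the same in both libraries. Ikzf1-201 skips the exon of 261 bases at chr11:11748311-11748571 (exon 4 of Ikzf1-204), which keeps the reading frame and takes away finger 1 and 87 codons in all. The lost finger and the joins that tell the forms apart follow. In finger 1 the capitals are the zinc-binding codons. In the joins the last 15 bases of exon 3 are in lower case and the first 15 of the next exon in capitals.
Ikzf1 finger 1: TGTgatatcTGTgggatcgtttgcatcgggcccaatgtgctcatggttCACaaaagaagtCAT
Ikzf1-204 join: gtgatcgaggcatggCCAGTAATGTTAAAG
Ikzf1-201 join: gtgatcgaggcatggGTGAACGGCCTTTCC

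Finger 1 lies at chr11:11748505-11748567 on the plus strand. The next exon, at chr11:11754007-11754174, holds fingers 2 and 3, and the one at chr11:11758195-11758317 holds finger 4. Ikzf1-201 thus keeps fingers 2, 3 and 4 and both C-terminal fingers, in a protein of 428 residues. The transcripts also differ in their last exon, of 4046 bases in Ikzf1-204 and 918 in Ikzf1-201, so the estimated shares do not rest on the join alone.

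Other Ikzf1 forms were minor. Ikzf1-203 adds an in-frame exon of 60 bases between exons 3 and 4 and keeps every finger. It held 2.61% of the TPM in replicate 1 and 0.42% in replicate 2, and the replicates differed by more than for Ikzf1-201. The added exon, at chr11:11740950-11741009, is shown whole in capitals.
Ikzf1-203 added exon: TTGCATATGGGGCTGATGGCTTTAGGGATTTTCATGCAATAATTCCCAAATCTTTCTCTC

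Ikzf1-202 lacks finger 1 and both C-terminal fingers and encodes 198 residues. It held 0.18% and 1.02%. Grouped by finger number, forms with 6 fingers held 85.96% and 82.04% of Ikzf1 TPM, the form with 5 fingers 12.58% and 13.63%, the form with 3 fingers 0.18% and 1.02%, and a pair of models with a partial coding sequence 1.28% and 3.32%. Means were 84.0 ± 2.8%, 13.1 ± 0.7%, 0.60 ± 0.59% and 2.30 ± 1.44%. The 6 Ikzf1 transcripts in these tables include no form with both C-terminal fingers and fewer than 3 N-terminal fingers, so the level of such dominant negative forms was not measured here.

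**Figure D2:**
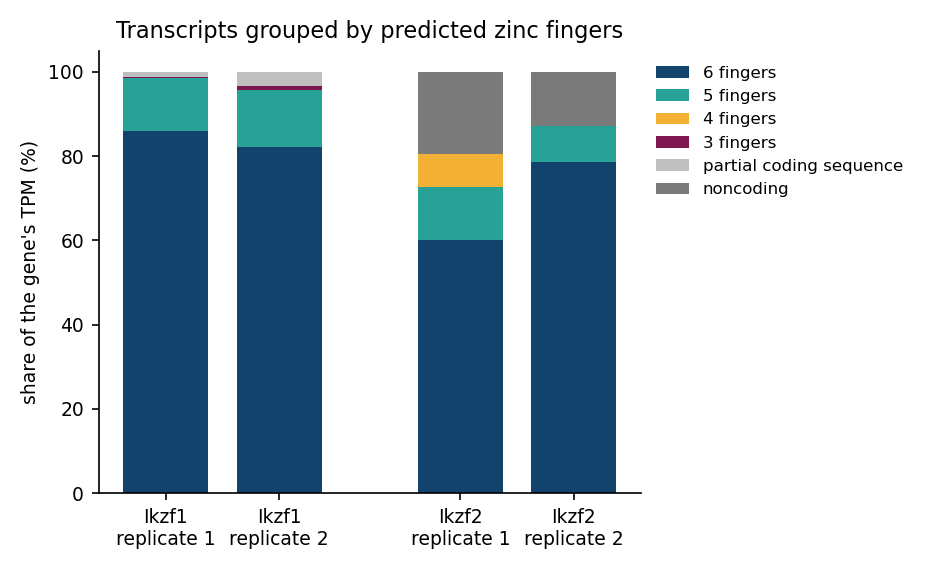
Share of each gene's TPM (percent) by the number of C2H2 fingers predicted in the transcript's protein, for Ikzf1 and Ikzf2 in each library. Forms with 6 fingers hold 85.96% and 82.04% of Ikzf1, against 60.20% and 78.54% of Ikzf2, where noncoding transcripts take 19.56% and 12.80%.

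The leading form held less of Ikzf2 than of Ikzf1 (83.35% and 81.62%), clearly in replicate 1 and by little in replicate 2. Ikzf2-201, the full form of 526 residues, had 3.30 TPM in replicate 1 and 1.79 TPM in replicate 2, or 56.11% and 78.54% of the gene. Ikzf2-202, which lacks 78 bases of exon 4 and with them finger 1, held 12.39% and 8.66%, from 84.8 and 21.3 expected counts. The deposited interval of its TPM was 0.343 to 1.01 in replicate 1 and 1.35e-06 to 0.302 in replicate 2. Its level in replicate 2 may thus be near 0. In structure Ikzf2-202 is the Helios counterpart of Ikzf1-201, although the bases are lost from part of an exon and not a whole one. Ikzf2-204, with 4 predicted fingers, 2 of them N-terminal, held 7.84% in replicate 1 from 35.1 expected counts and was listed at 0 in replicate 2. The stretch left out of Ikzf2-202 lies at chr1:69577781-69577858 on the minus strand and is shown with the zinc-binding codons in capitals.
Ikzf2-201 stretch: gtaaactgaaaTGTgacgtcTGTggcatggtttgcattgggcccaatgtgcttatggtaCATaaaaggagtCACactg

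Ikzf2-203, annotated as a retained intron, had 1.15 TPM in replicate 1 and 0.22 TPM in replicate 2, or 19.56% and 9.52% of the gene. Coding transcripts together stood at 4.73 and 1.99 TPM. Replicate 1 was thus the higher library for the coding and the noncoding transcripts alike. Gm29112, a sense transcript within an Ikzf2 intron, had expected counts of 130 and 14, and Gm28112, another, 63 and 40. Both are named for their position, after their values were seen. The antisense gene Gm29114 shares 144 exonic bases with Ikzf2 and had 14.3 and 18.1 expected counts.

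Ikzf5 rested on 1 form, while Ikzf3 and Ikzf4 had few reads to divide. Ikzf5-201, of 419 residues and 5 fingers, held 98.18% and 98.29% of Ikzf5. For Ikzf3, the coding transcript Ikzf3-201 held 100% in replicate 1 and 47.52% in replicate 2. There the noncoding Ikzf3-202 took 52.48%, from only 11.5 expected counts. Ikzf3-201 alone stood at 0.49 TPM in replicate 1 and 0.25 TPM in replicate 2. Effective length over the whole gene, which follows the transcript mix, was 3519 bases in replicate 1 and 2056 in replicate 2, so the near-equal gene TPM goes with unequal reads. For Ikzf4, the 11 reads in replicate 1 were divided between models that have no match in the annotation used here, and the 1 coding model that matched, Ikzf4-201, was listed at 0 in both libraries.

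The libraries were then set side by side by their reads, scaled by TMM. Among the 14304 genes kept by the filter on low counts, 7.69% differed by 2-fold or more in either direction and 5.04% were lower by that much in replicate 2. Of the family, 4 members passed the filter and 0 of them reached 2-fold. The log2 ratio of replicate 2 to replicate 1 was -0.04 for Ikzf1, with a 95% counting interval of -0.07 to -0.01, and 0.13 for Ikzf5, with 0.06 to 0.20. For Ikzf3 it was -0.64, with a wide interval of -1.13 to -0.19. Genes between 0.1 and 1 TPM had a median absolute log2 ratio of 0.57, so Ikzf3 was near the typical spread for its level.

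Ikzf2 was close to the threshold. Its log2 ratio was -0.98, with an interval of -1.09 to -0.87, which is 1.97-fold fewer scaled reads in replicate 2. The median absolute log2 ratio of genes between 1 and 10 TPM was 0.25, and 6.16% of them passed 2-fold. In TPM the same gene was 2.59-fold higher in replicate 1, beside an effective length of 5950 bases in replicate 1 and 7595 in replicate 2, by which TPM divides. These intervals cover counting error only, and with 1 library on each side no spread between samples enters them.

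**Figure D3:**
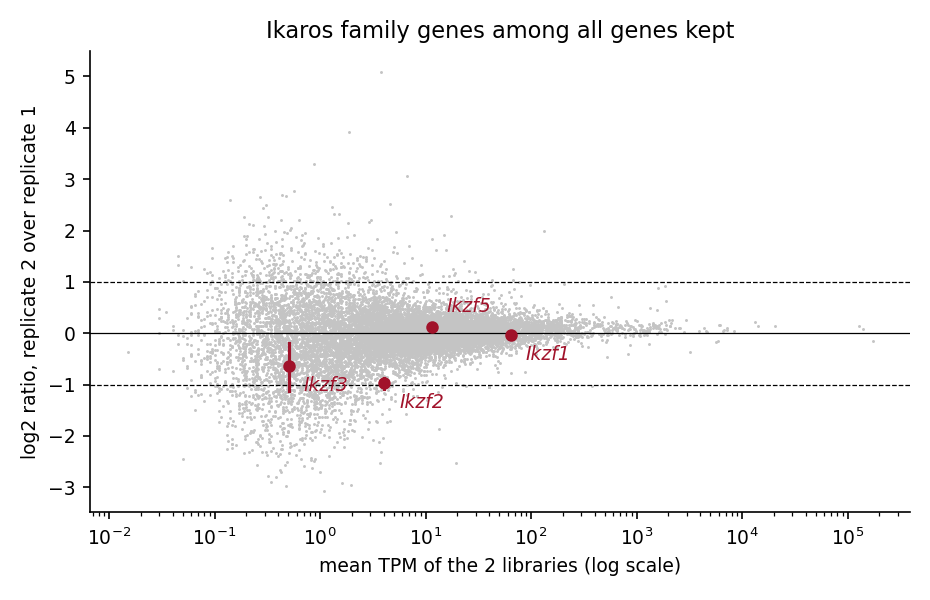
Log2 ratio of scaled reads, replicate 2 over replicate 1, against mean TPM on a log axis, for genes that passed the filter and had a mean TPM above 0 (grey) and for the 4 Ikaros family genes among them (red, with 95% counting intervals). Dashed lines mark 2-fold, and Ikzf2 at -0.98 lies just inside the lower one while Ikzf1 and Ikzf5 lie near 0.

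The marker lists were also set side by side between the libraries. The summed level of the 7 erythroid markers was 586 TPM in replicate 1 and 300 TPM in replicate 2, led by the carbonic anhydrase gene Car1 at 512 and 242 TPM. The megakaryocyte list, given above, was also higher in replicate 1. The 10 T and NK cell markers summed to 3.62 and 1.98 TPM, and the 8 B cell markers to 22.0 and 22.3 TPM. The 9 granulocyte markers had a median log2 ratio of 0.22 and the 7 erythroid markers one of -0.21, against 0.00 over all genes kept. Of the 25 blood transcription factors, Mecom and Gata1 passed 2-fold, both lower in replicate 2, and Gata1 is named after its value was seen. This count is near the 7.69% over all genes kept, but that share depends on level. It was 25.5% between 0.1 and 1 TPM, 6.16% between 1 and 10 TPM and 0.647% between 10 and 100 TPM. By mean TPM, Mecom (0.99) lies in the lowest of these ranges and Gata1 (7.6) in the next. The 25 factors had a median level of 13.5 TPM and a median log2 ratio of -0.13. The part of these differences in the Ikzf2 values was not tested.

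Genes of the complexes that Ikaros proteins work with were present throughout. All 14 NuRD genes passed 1 TPM in both libraries and their median was 39.9 TPM, against 46.2% of all protein-coding genes passing and a median of 0.59 TPM. The histone-binding genes Rbbp7 (158.76 and 147.52 TPM) and Rbbp4 (106.16 and 97.15 TPM) and the small subunit gene Cdk2ap1 (110.18 and 106.40 TPM) led the list. Chd4, the remodelling ATPase bound by Ikaros, had 37.72 and 35.66 TPM, while its paralog Chd3 was the lowest at 9.21 and 7.08 TPM. Between the libraries 0 of 14 passed 2-fold, against 0.647% of all genes kept between 10 and 100 TPM.

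All 11 SWI/SNF genes passed as well, and their median was 28.6 TPM. Actl6a, an actin-related subunit, was the highest at 54.03 and 46.95 TPM and Smarcd1 the lowest at 9.44 and 10.03 TPM. The 5 CtBP and Sin3 corepressor genes ranged from Ctbp2 at 18.64 and 14.69 TPM to Ctbp1 at 44.66 and 41.93 TPM. Casein kinase 2 phosphorylates Ikaros and protein phosphatase 1 removes the phosphate. All 6 of their genes passed 1 TPM, from the catalytic subunit Csnk2a2 at 9.61 and 9.39 TPM to the phosphatase subunit Ppp1cc at 180.35 and 184.65 TPM. The 5 genes of the cereblon ubiquitin ligase, which thalidomide-type drugs turn on Ikaros and Aiolos in human cells, also passed. Its substrate receptor Crbn was the lowest at 12.68 and 11.73 TPM and the adaptor Ddb1 the highest at 44.58 and 39.96 TPM. No gene of these 4 lists passed 2-fold between the libraries, where 0.647% of all genes kept between 10 and 100 TPM did.

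Most Notch pathway genes were low. Of 16 genes, 5 passed 1 TPM in both libraries, 10 were under 1 TPM in both and the median was 0.25 TPM. Rbpj, the DNA-binding partner of Notch whose sites Ikaros can compete for, had 23.92 and 24.54 TPM. The receptors Notch2 and Notch1 had 9.39 and 9.81 TPM and 7.13 and 5.61 TPM. The other receptor genes were lower, with Notch3 at 6 and 2 reads. Notch4, named after its values were seen, had 0.20 and 0.52 TPM but 68 and 43 reads, so its TPM and reads went opposite ways. The target gene Hes1, which Notch activates and Ikaros can repress, had 0.25 and 0.10 TPM from 13 and 8 reads. Among ligands, Dll1 was at 0 counts in each library, where 3 counts would be 0.046 and 0.049 TPM. Of the 9 Notch pathway genes that passed the filter on low counts, 1 passed 2-fold, lower in replicate 2. It was Maml2, named after its value was seen, with a log2 ratio of -1.25. The share past 2-fold was 7.69% of all genes kept and 25.5% of those between 0.1 and 1 TPM.

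Lymphoid genes known as Ikaros targets were mostly low. Of 12 genes, 3 passed 1 TPM in both libraries, 8 were under 1 TPM in both and the median was 0.36 TPM. Flt3, a cytokine receptor of early progenitors, had 5.85 and 3.69 TPM. Dntt, the terminal transferase of early lymphoid cells, had 7.12 and 2.09 TPM, with a log2 ratio of -1.71. Igll1, a surrogate light chain gene, had 0.97 and 0.23 TPM from 34 and 18 reads. Pax5 and Vpreb2 were at 0 counts in each library, where 3 counts would be 0.059 and 0.063 TPM for Pax5 and 0.166 and 0.177 TPM for Vpreb2. Of the 8 genes that passed the filter on low counts, 2 passed 2-fold, Dntt and the cytokine receptor gene Il7r, the latter named after its value was seen, both lower in replicate 2, against 7.69% of all genes kept and 25.5% of those between 0.1 and 1 TPM. Others were higher in replicate 2, among them Foxo1, with a log2 ratio of 0.30, and the recombination gene Rag2, named after its values were seen, with 0.89.

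**Figure D4:**
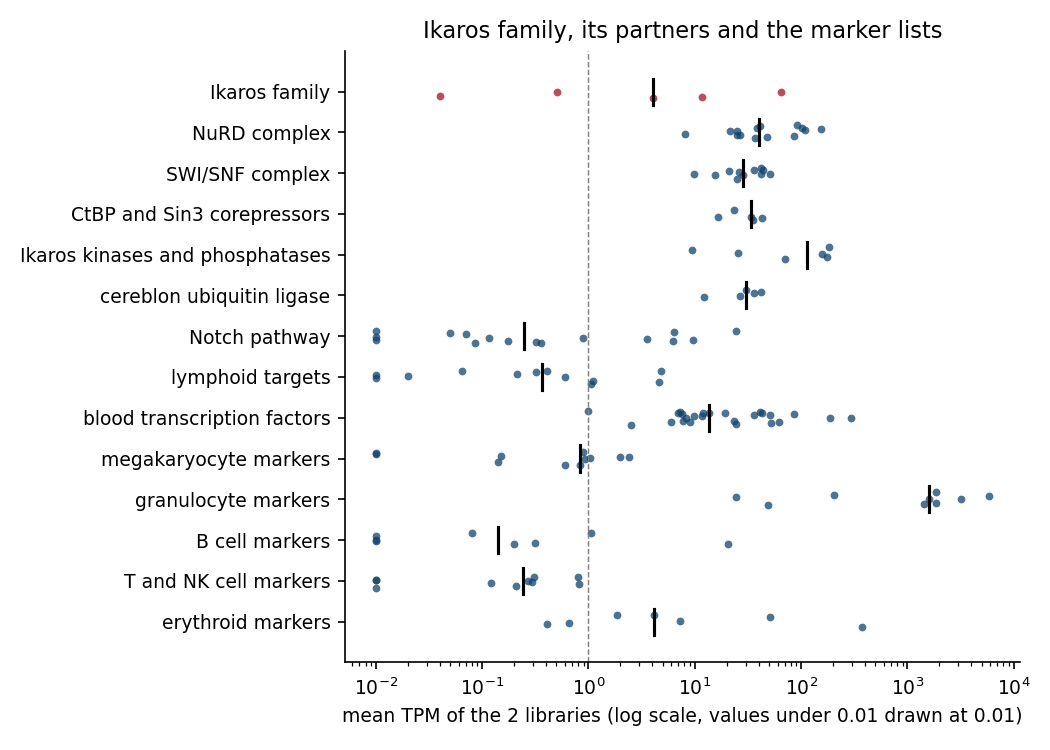
Mean TPM of every gene of the Ikaros family (red), of its partner and target lists and of the cell type markers (blue) on a log axis, with a black bar at each list's median and a dashed line at 1 TPM. The NuRD, SWI/SNF, corepressor, kinase and phosphatase and cereblon lists lie wholly above 1 TPM, while the 5 Ikaros family genes reach from 0.04 to 64.9 TPM.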

How the data were processed

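The 2 total RNA-seq libraries form 1 group. Per the file lists deposited with the samples, the tables refer to mm10 and GENCODE M4; the aligner and quantifier versions were not given in the sources used here. The authors deposited expected counts, which estimate the reads of each gene or transcript. The deposited TPM values are scaled to a fixed total over all rows, spike-ins included, so abundant ribosomal and mitochondrial RNA lowers the other levels. The columns read as a score are the authors' lower and upper TPM bounds, whose level was not given in the sources used here. The deposited percent values give each transcript's share of its gene's TPM. Reads that fit several transcripts were divided by the authors' model, so shares of similar transcripts are estimates.

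Symbols, positions and transcript sequences were those of GENCODE M21 (GRCm38, which is mm10), matched by identifier without version: 42462 of 43346 Ensembl genes (98.0%), all 144 list entries, and 25 of the family's 32 transcripts, 24 of them with the same length. Of 8 Ikzf4 transcripts, 1 matched. Coding sequences were translated and aligned with Biopython 1.88. Fingers were found by pattern, not by experiment. Expected counts were rounded and filtered with edgeR 4.0.16 (filterByExpr), scaled by TMM with a prior count of 2, and compared as log2 ratios with exact 95% Clopper-Pearson intervals. These intervals and the floor of 3 counts cover counting error only, since PCR copies are not independent molecules. The calculation was also run on simulated counts with known large changes in genes with many reads. That setting does not cover Ikzf3, Ikzf4 or changes near 2-fold. Members and lists were chosen with earlier results of these data known. Named genes were the members, the 3 highest and up to 2 lowest genes of each list, 7 genes of known relation to Ikaros, and the 3 blood transcription factors nearest each member in level; some of these genes are not reported here. DESeq2 1.42.0 size factors, other scalings, posterior means and other thresholds were tried as alternatives.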

Additional observations from a re-analysis of the deposited data

How the results depend on the processing

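Of 118 alternative values over 38 results, 104 stayed within the spread of the replicates, the counting interval or 1.5 times the count, and no log2 ratio changed sign. Leaving out either library gave 36 of these, which with 2 libraries always lie within the SD and so say nothing of stability: the level of Ikzf2 ranged from 2.27 to 5.88 TPM, and the leading Ikzf3 transcript from 47.5% to 100% of its gene. With TPM rescaled after leaving out Gm42418 and the rows of mitochondrial genes, small RNAs, spike-ins and numeric identifiers, mean levels were 142 TPM for Ikzf1, 25.3 for Ikzf5, 8.95 for Ikzf2 and 1.11 for Ikzf3. This rescaling multiplies all values of a library by 1 factor, so it could not change the order within a library. With posterior mean TPM, Ikzf3 stood at 0.58 TPM and Ikzf4 at 0.34 TPM, their shares of the family were 0.72% and 0.42%, the share of the leading Ikzf5 transcript was 95.5%, and that of the leading Ikzf4 transcript in replicate 1 was 7.79% against 65.0%. Without a filter on low counts, 4660 genes passed 2-fold between the libraries against 1100. At 0.5 TPM, 4 megakaryocyte markers and 2 T and NK cell markers passed, and at 2 TPM 1 megakaryocyte marker did. Scaling by the total of expected counts was added after seeing the data for the count of genes past 2-fold. No paired analysis was possible because there is 1 group. Depth limits Ikzf4, with 11 reads in 1 library, and Ikzf3, with 108 and 62.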
